A study of Homo sapiens with 8 samples.

Results

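The 35 genes described here belong to the NF-kB pathway, to the cytokines and chemokines it controls, and to the gp130 and STAT3 pathway. They were chosen by name, with earlier results of these data known. Each name matched 1 of the 61906 rows of a table of gene expression. RNAseq was performed on U251 cells, a human glioblastoma line labelled as wild type, after 24 h with either DMSO (vehicle) or LLY-283 at 100 nM. LLY-283 inhibits PRMT5, an enzyme which methylates arginine residues symmetrically in many proteins. Each treatment had 4 libraries, labelled biological replicates 1 to 4. The labels name no cytokine or other stimulus, the cultures were of 1 cell line, and p-values measure the spread between these 8 libraries.

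NF-kB is a family of transcription factor dimers held in the cytoplasm by IkB proteins. Receptors such as those for TNF and IL-1 recruit adaptors and ubiquitin ligases that activate the IKK kinase, which marks IkB for destruction and releases the dimers to the nucleus, where they switch on cytokines, chemokines and their own inhibitors. Cytokines of the IL-6 family, among them IL-6, IL-11 and LIF, signal through the shared receptor gp130 (IL6ST) to STAT3, whose target SOCS3 shuts the signal off. In glioblastoma, both pathways are known for their association with the mesenchymal state. RELA has itself been described as a substrate of PRMT5; protein methylation was not measured in these libraries.

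Promoter sequence was read from RefSeq (GRCh38.p14), which gave at least 1 start site for 28 of the 35 genes. CCL2, LIF, CSF1, RELB, NFKBIE, IKBKB and CEBPD were not searched. The 250 bases upstream of each start site were searched on both strands for the degenerate 10-base kB consensus, which NF-kB dimers bind. It occurred in 16 of the 41 windows of these genes (39.0%), upstream of 14 of the 28 genes, and in 9.95% of the 34943 windows of all genes. Of these 14 genes, 7 were expressed too low to be tested and 7 were tested, and 0 of the 7 passed the limma test described below, also at an unadjusted p-value under 0.05, while of the 14 genes without a match 10 were tested and 2 (RELA and IL11) passed. Of all genes tested, 26.2% passed. The genes without a match include known NF-kB targets such as SOD2, so this split does not separate targets from other genes. Stretches of 30 bases around the match are printed, 5′ to 3′ on the gene's strand with the match in capitals, for the CXCL chemokines, the IL-6 gene and the feedback inhibitors, because these are the classical targets whose levels are given below.
CXCL1, chr4:73869305-73869334, plus strand: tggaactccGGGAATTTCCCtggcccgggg
CXCL2, chr4:74099253-74099282, minus strand: tggagctccGGGAATTTCCCtggcccggga
CXCL3, chr4:74038748-74038777, minus strand: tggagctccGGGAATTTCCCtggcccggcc
IL6, chr7:22727117-22727146, plus strand: tatcaaatgtGGGATTTTCCcatgagtctc
NFKBIA, chr14:35404811-35404840, minus strand: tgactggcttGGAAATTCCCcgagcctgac
TNFAIP3, chr6:137867188-137867217, plus strand: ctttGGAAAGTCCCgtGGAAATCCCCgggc
The CXCL1, CXCL2 and CXCL3 stretches carry the same 11 capital letters, which are a pair of overlapping matches, and TNFAIP3 carries 2 separate matches. GENCODE places the 5′ end of CXCL3, IL6 and TNFAIP3 further upstream than the RefSeq start used here.

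IL11, the gene with the smallest p-value of the set, had no kB match in its 250 bases. They are printed with the AP-1 motif TGANTCA in capitals, which was found in 4 of the 41 windows (of IL11, CXCL8 and IL1A) and in 6.59% of the windows of all genes.
IL11, chr19:55370464-55370713, minus strand: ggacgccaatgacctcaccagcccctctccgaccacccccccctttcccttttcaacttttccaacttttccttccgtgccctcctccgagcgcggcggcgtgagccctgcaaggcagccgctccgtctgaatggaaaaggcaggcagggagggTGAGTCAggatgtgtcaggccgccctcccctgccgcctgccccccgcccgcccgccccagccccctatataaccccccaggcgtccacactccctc
The STAT motif TTCNNNGAA was found in 3 of the 41 windows (of ICAM1, IL1B and 1 of the 2 start sites of RELA) and in 6.56% of all windows, and a TATA box (TATAAA) in 8 of the 41 and in 10.75% of all windows. In the windows of the 28 genes, matches of different motifs overlapped in 0 cases. These matches are strings of letters and do not measure binding.

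The values are TPM, a scale of transcript abundance in which estimated reads are divided by transcript length and by the total of the library, so that levels of different genes can be compared. TPM keeps no read number, so the depth is unknown and no counting error can be given. Of the 7 glial and mesenchymal markers, 6 averaged 1 TPM or more, with VIM at 4019 to 4390 TPM and GFAP at 663 to 840 TPM over the 8 libraries, and CHI3L1 stayed at or under 0.23 TPM. Of the 17 markers of immune and endothelial cells, CD68 (0.95 to 2.93 TPM) and KDR (1.85 to 2.55 TPM) averaged over 1 TPM and the other 15 under 1 TPM. The 8 microglial and myeloid markers summed to 2.73 to 3.98 TPM in vehicle and 2.15 to 3.53 TPM in LLY-283 libraries, AIF1 and the T cell genes CD3D and CD3E were at 0 in all 8 libraries, and the 4 endothelial markers summed to at most 2.93 TPM. LLY-283 replicate 4 stood apart in the share of TPM held by genes of the mitochondrial genome, 7.19% against 10.2% to 11.0% in the other 7 libraries, so results were also computed without it.

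The levels of the 35 genes ranged from not detected to very abundant. A mean above 50 TPM was reached by 8 genes (CCL2, TNFAIP2, TNFRSF1A, IL11, STAT3, LIF, SOD2 and RELA), a mean of 10 to 50 TPM by 8, a mean of 1 to 10 TPM by 8 and a mean under 1 TPM by 11. For comparison, the median over all genes tested was 17.1 TPM. The highest member, CCL2, at 501 ± 29.1 TPM (SD, n = 4) in vehicle, was above 98.2% of the genes tested, and the lowest, CXCL1, was listed at 0 in all 8 libraries. The replicates agreed well for most members. Over the 24 tested genes, the coefficient of variation between replicates had a median of 5.61% in vehicle (0.765% to 22%) and 5.78% in LLY-283 libraries (0.730% to 24.4%).

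**Figure D1:**
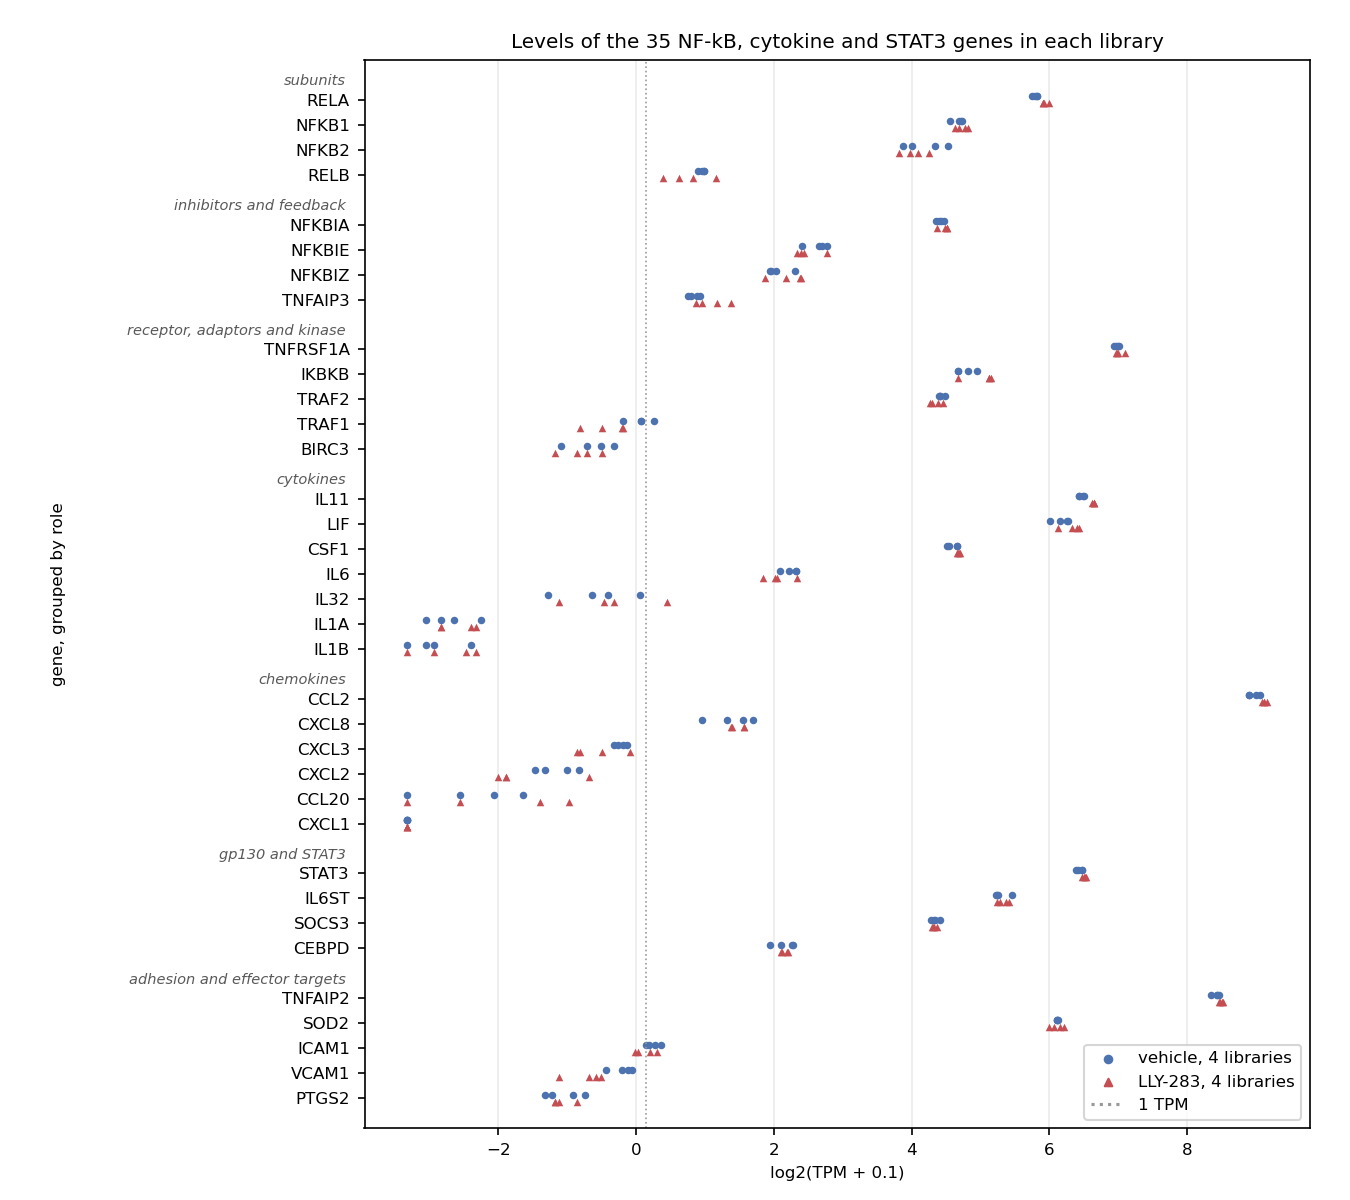
Level of each of the 35 genes in each of the 8 libraries, as log2(TPM + 0.1) on the horizontal axis, with genes grouped by role and ordered by mean level within a role. Circles are vehicle and triangles LLY-283 libraries, and the dotted line marks 1 TPM. The distance between genes, from CXCL1 at 0 to CCL2 above 475 TPM, far exceeds any distance between the treatments.

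The treated and vehicle libraries, 4 of each, were compared to ask how far inhibition of PRMT5 for 24 h shifts these transcripts. RELA, IL11 and CCL2 rose, by 10.1%, 13% and 11.4%. No tested gene of the set was called lower, although 8 had a log2 fold change below 0. The remaining 21 tested genes did not pass the test. It was run on log2(TPM + 0.1) for all 14478 genes that averaged 1 TPM or more, with limma and Benjamini-Hochberg adjustment over all of them, and a gene was called at an adjusted p-value under 0.05. Of the 35 genes, 24 were tested and 11 were too low. Of all genes tested, 26.2% were called, 8.61% as higher and 17.6% as lower. The 3 increases are 12.5% of the 24 tested genes, near the 8.61% of all genes, while 0 of the 24 were called lower. At an unadjusted p-value under 0.05, 4 of the 24 genes were higher and 0 were lower. The share of all genes at an unadjusted p-value under 0.05 was not counted, so these numbers have no background beside them. A call with a change above 1.5-fold was made for 0 of the 24 genes in either direction, against 3.87% of all genes (0.394% higher and 3.48% lower). The 4 genes with an unadjusted p-value under 0.05 changed by at most 13%.

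The log2 fold changes of the 24 genes lay between -0.20 (RELB) and 0.25 (TNFAIP3), with a median of 0.058 against -0.047 for all genes tested, and 16 of them (66.7%) were above 0 against 39.8% of all genes. Under median-of-ratios scaling and under quantile normalization 18 of them (75%) were above 0, against 52.6% and 53.3% of all genes. The groups did not overlap for 4 genes, RELA, IL11, CCL2 and TNFAIP2, all higher with LLY-283 (16.7% of those tested). Of all genes tested, 29.2% did not overlap, 9.63% being higher and 19.6% lower, and 0 of the 24 members were lower without overlap. For 22 of the 24 genes the 95% confidence interval of the fold change, taken gene by gene, lay inside 1.5-fold in both directions. The exceptions were RELB, whose interval reached down to -0.61 on the log2 scale, and TNFAIP3, whose interval reached up to 0.59. Over all genes tested, 79.2% of intervals lay inside 1.5-fold.

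The scaling of the libraries bears on this count. Median-of-ratios scaling, which sets the median gene close to no change, shifted the median over all genes from -0.047 to 0.013 on the log2 scale. It called 6 of the 24 genes higher and 0 lower (RELA, IL11, CCL2, CSF1, STAT3 and TNFAIP2), and over all genes 2165 higher (15%) and 1714 lower (11.8%) in place of 1247 and 2541. RELA and IL11 were called under all 18 alternatives tried.

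**Figure D2:**
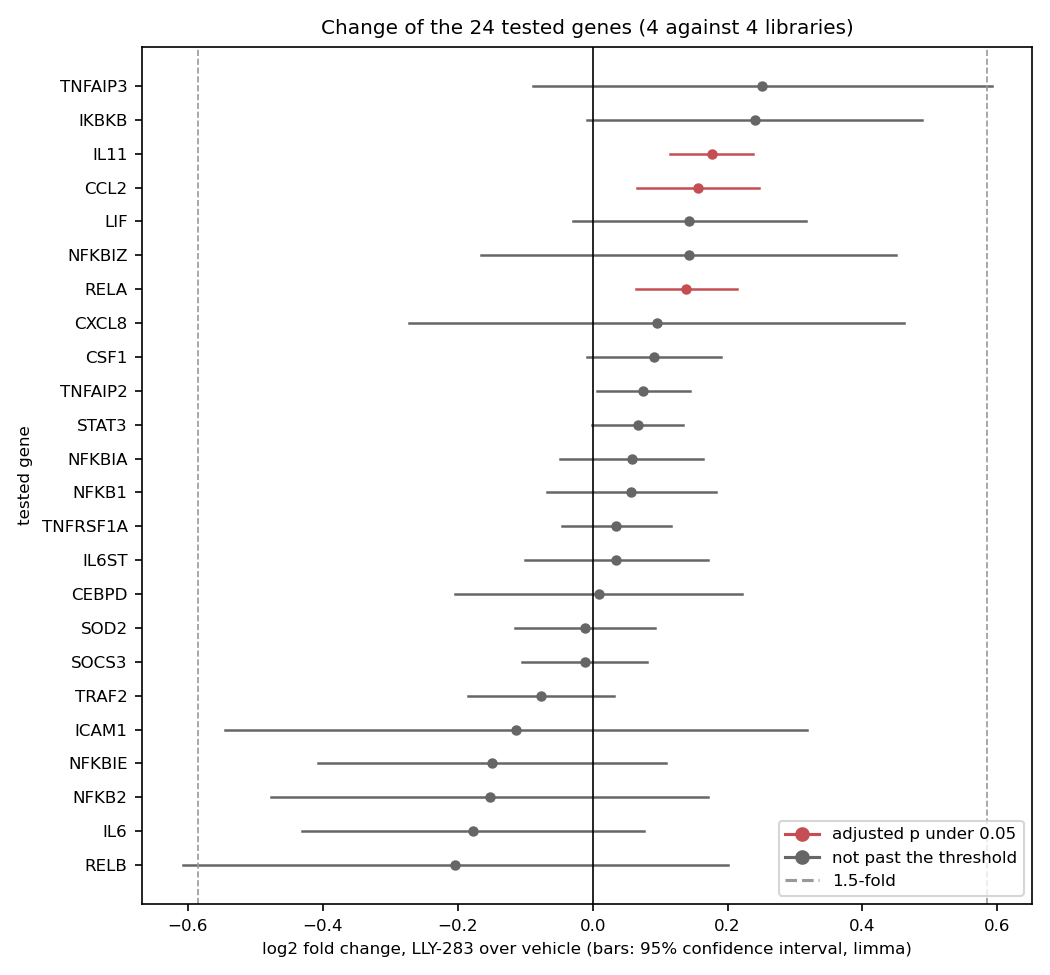
Log2 fold change of LLY-283 over vehicle for the 24 tested genes, with 95% confidence intervals from limma (4 against 4 libraries). Red marks RELA, IL11 and CCL2, which passed an adjusted p-value of 0.05, dashed lines mark 1.5-fold, and only the intervals of RELB and TNFAIP3 cross a dashed line.

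Of the 4 NF-kB subunits in the set, RELA rose and the other 3 did not pass the test. RELA (ENSG00000173039, chr11:65653599-65663090, minus strand of GRCh38) encodes p65, the subunit with the main transactivation domain. It had 53.6, 55.04, 56.54 and 56.65 TPM in vehicle replicates 1 to 4 and 60.16, 63.68, 59.84 and 60.59 TPM in LLY-283 replicates 1 to 4. All 4 LLY-283 libraries lay above all 4 vehicle libraries. On the log2 scale RELA differed by 0.14 (standard error 0.033, adjusted p = 0.0146, limma), and by 0.12 to 0.15 when single libraries were omitted. RELA overlaps the divergent noncoding gene RELA-DT on the opposite strand, and the sources used here do not say whether strand was used in counting.

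NFKB1, which encodes p105 and its processed form p50, the usual partner of p65, had 25.66, 26.51, 26.1 and 23.33 TPM in vehicle and 27.4, 25.6, 24.73 and 28.01 TPM in LLY-283 libraries. The groups overlapped, and the log2 fold change of 0.057 had an interval from -0.068 to 0.18 (adjusted p = 0.484, limma). RELA was the most abundant subunit at 2.19 ± 0.164 times the NFKB1 level in vehicle and 2.32 ± 0.161 times with LLY-283 (SD, n = 4 each). NFKB2, the precursor of p52, ranged from 14.53 to 22.87 TPM in vehicle and from 13.99 to 19.01 TPM with LLY-283 (log2 fold change -0.15, adjusted p = 0.471, limma). RELB, the partner of p52, was low at 1.76 to 1.88 TPM in vehicle and spread wider, from 1.21 to 2.13 TPM, with LLY-283 (log2 fold change -0.20, adjusted p = 0.441, limma). The fifth subunit, REL (c-Rel), which is not in the set, was as low at 1.60 ± 0.221 TPM in vehicle and 1.60 ± 0.434 TPM with LLY-283 (log2 fold change -0.023, adjusted p = 0.948, limma; SD, n = 4 each).

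The 4 genes grouped here as inhibitors and feedback, with NFKBIA and TNFAIP3 among the promoter stretches printed above, did not pass the test. This held in either direction (0 of 4 higher and 0 of 4 lower), also at an unadjusted p-value under 0.05. NFKBIA encodes IkBα, the classical inhibitor and an early target of the pathway. It had 20.39, 22.05, 21.5 and 21.02 TPM in vehicle and 20.52, 22.8, 22.81 and 22.36 TPM in LLY-283 libraries. Of the LLY-283 values, 3 lay above all vehicle values, while replicate 1 was among the lowest of the 8. The log2 fold change of 0.058 had an interval from -0.048 to 0.16 (adjusted p = 0.402, limma). NFKBIE, encoding IkBε, had a log2 fold change of -0.15 (6.14 ± 0.652 to 5.54 ± 0.817 TPM, adjusted p = 0.374). NFKBIZ, encoding the nuclear IkBζ, had one of 0.14 (4.10 ± 0.522 to 4.56 ± 0.757 TPM, adjusted p = 0.479, limma; SD, n = 4 each). TNFAIP3 encodes A20, a ubiquitin-editing enzyme that ends the signal. It had 1.64, 1.59, 1.74 and 1.8 TPM in vehicle and 1.83, 2.5, 2.15 and 1.73 TPM in LLY-283 libraries. Its log2 fold change of 0.25, the largest of the 24 tested members, was not past the threshold (adjusted p = 0.252, limma), and the lowest LLY-283 value lay inside the vehicle range. It passed under quantile normalization alone (log2 fold change 0.44, adjusted p = 0.0461).

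Of the receptor, adaptors and kinase, TNFRSF1A, TRAF2 and IKBKB were tested and did not pass (0 of 3, also at an unadjusted p-value under 0.05), and TRAF1 and BIRC3 were too low. TNFRSF1A, the main TNF receptor, was abundant at 126 ± 2.88 TPM in vehicle and 129 ± 5.76 TPM with LLY-283 (log2 fold change 0.035, adjusted p = 0.508). TRAF2, an adaptor of that receptor, had 21.4 ± 0.559 and 20.3 ± 1.16 TPM (log2 fold change -0.076, adjusted p = 0.276, limma; SD, n = 4 each).

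IKBKB, which encodes the catalytic subunit IKKβ, was a member whose call depended on 1 library. It had 25.43, 25.31, 30.83 and 28.03 TPM in vehicle and 35.37, 34.66, 34.94 and 25.32 TPM in LLY-283 libraries. LLY-283 replicates 1 to 3 lay above every vehicle library, whereas replicate 4, the library with the low mitochondrial share, lay at the bottom of the vehicle range. With all 8 libraries IKBKB differed by 0.24 on the log2 scale (standard error 0.111, adjusted p = 0.143, limma). Without LLY-283 replicate 4 it was 0.36 and passed (adjusted p = 0.00557), and over the 18 alternatives its adjusted p-value ranged from 0.00557 to 0.280. The part of that library in the result was not tested beyond leaving it out.

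**Figure D3:**
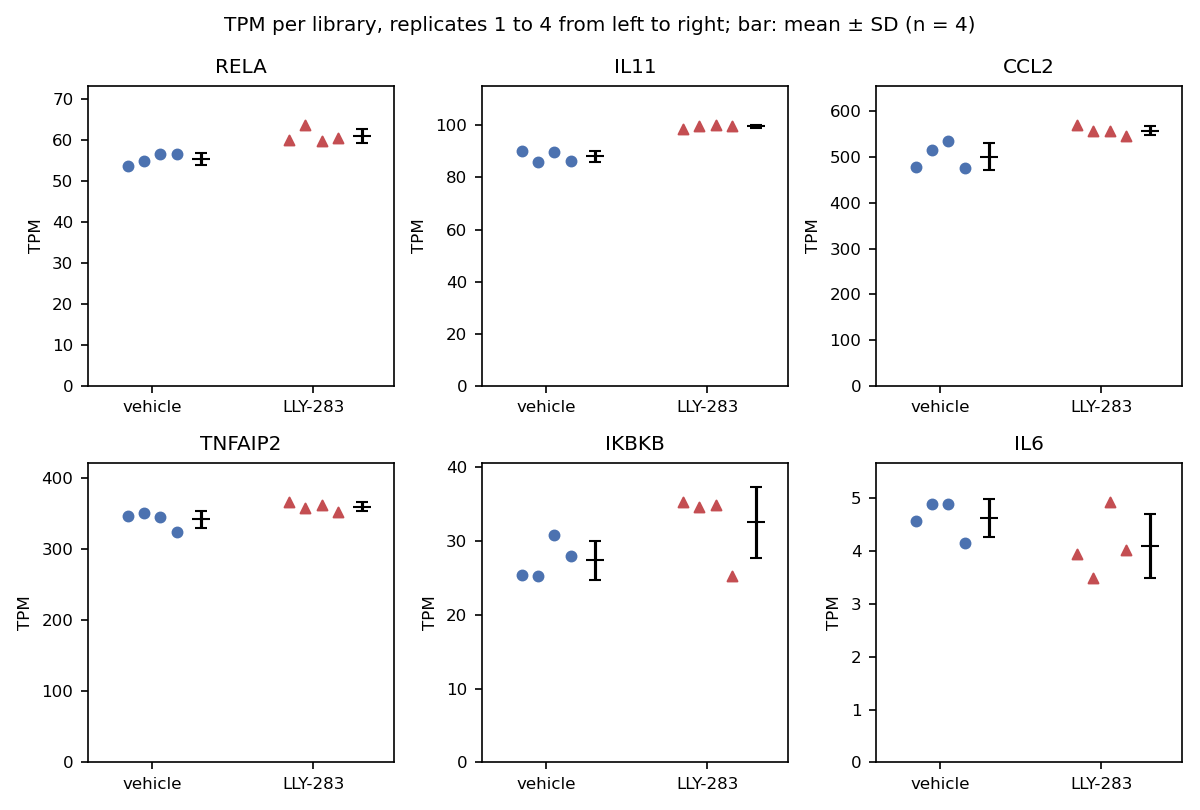
TPM of RELA, IL11, CCL2, TNFAIP2, IKBKB and IL6 in each library, with vehicle replicates 1 to 4 as circles and LLY-283 replicates 1 to 4 as triangles, in that order from left to right, beside the mean and SD (n = 4). In the first 4 genes all triangles lie above all circles, in IKBKB 1 of the 4 triangles (25.32 TPM) lies at the level of the circles, and in IL6 the groups overlap.

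Among the cytokines, U251 cells expressed IL11, LIF and CSF1 well and IL6 little, and IL11 rose. IL11 (ENSG00000095752, chr19:55364382-55370463, minus strand of GRCh38, overlapping no other gene) encodes interleukin-11, a secreted ligand of gp130. It had 90.33, 86.1, 89.74 and 86.31 TPM in vehicle and 98.5, 99.8, 100.09 and 99.91 TPM in LLY-283 libraries. The treated libraries agreed closely and all lay above the vehicle libraries. On the log2 scale IL11 differed by 0.18 (standard error 0.028, adjusted p = 0.00182, limma), and by 0.17 to 0.19 when single libraries were omitted.

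LIF, leukemia inhibitory factor, another ligand of the family, had 76.72, 71.07, 77.2 and 64.44 TPM in vehicle and 86.12, 80.31, 84.09 and 69.45 TPM in LLY-283 libraries. LLY-283 replicates 1 to 3 lay above all vehicle libraries, and replicate 4 did not. The log2 fold change of 0.14 did not pass (adjusted p = 0.202, limma). It passed without LLY-283 replicate 4 (log2 fold change 0.21, adjusted p = 0.0357) and with the replicate number as a block (adjusted p = 0.0189). Over the 18 alternatives the adjusted p-value ranged from 0.0189 to 0.428 (limma). LIF overlaps the antisense genes LIF-AS1 and LIF-AS2.

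IL6, the prototype of the family, had 4.57, 4.89, 4.9 and 4.15 TPM in vehicle and 3.94, 3.5, 4.94 and 4.03 TPM in LLY-283 libraries. The groups overlapped and the log2 fold change of -0.18 did not pass (interval -0.43 to 0.076, adjusted p = 0.279, limma). In vehicle, IL11 stood at 19.1 ± 1.43 times the IL6 level, and with LLY-283 at 24.6 ± 3.38 times (SD, n = 4 each). The ratio was 17.6 to 20.8 in the vehicle and 20.3 to 28.5 in the LLY-283 libraries, so that the ranges overlapped. CSF1, the macrophage growth factor, had 23.1, 22.74, 25.22 and 25.06 TPM in vehicle and 25.88, 25.76, 25.49 and 25.15 TPM in LLY-283 libraries, a log2 fold change of 0.091 (adjusted p = 0.162, limma) with the groups overlapping by a single library on each side. It passed under quantile normalization (adjusted p = 0.0436) and median-of-ratios scaling (adjusted p = 0.0213). The IL-1 genes IL1A and IL1B stayed at or under 0.11 TPM in every library. IL32, a cytokine of immune and epithelial cells, stayed at 0.31 to 1.26 TPM. These 3 genes were not tested.

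Of the 6 chemokines, CCL2 dominated and rose. CCL2 (ENSG00000108691, chr17:34255274-34257208, plus strand of GRCh38, overlapping no other gene) attracts monocytes through the receptor CCR2. It had 477.87, 514.51, 535.24 and 475.42 TPM in vehicle and 569.75, 556.67, 557.03 and 545.73 TPM in LLY-283 libraries. The groups did not overlap, but the highest vehicle and the lowest LLY-283 library were close. On the log2 scale CCL2 differed by 0.16 (standard error 0.040, adjusted p = 0.0193, limma). The call rested on single libraries: without vehicle replicate 1 the adjusted p-value was 0.0531, without vehicle replicate 4 it was 0.0555, and without LLY-283 replicate 1 it was 0.0513, with log2 fold changes of 0.13, 0.13 and 0.15. It was called in the other 15 alternatives, in which the adjusted p-value went down to 0.00333.

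CXCL8, interleukin-8, a neutrophil attractant, was low, with 1.84, 2.4, 2.83 and 3.13 TPM in vehicle and 2.52, 2.87, 2.85 and 2.5 TPM in LLY-283 libraries. Vehicle values spread on both sides of the LLY-283 values (log2 fold change 0.095, adjusted p = 0.707, limma). CXCL1, CXCL2 and CXCL3, neutrophil chemokines that lie within the same cluster of chromosome 4, were under 1 TPM in every library. CXCL1 was at 0 throughout, CXCL2 ranged from 0.26 to 0.46 TPM in vehicle and from 0.15 to 0.52 TPM with LLY-283, and CXCL3 from 0.7 to 0.81 and from 0.45 to 0.84 TPM. Their canonical transcripts are alike (83.7% identity of CXCL1 with CXCL2, 69.2% of CXCL1 with CXCL3 and 73.0% of CXCL2 with CXCL3), and RSEM divides reads that fit more than 1 gene, so the split between the 3 is uncertain. CCL20, the ligand of CCR6, was between 0 and 0.41 TPM.

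In the gp130 and STAT3 branch, 0 of 4 tested genes passed the test, also at an unadjusted p-value under 0.05. STAT3 had 88.92, 83.85, 88.6 and 85.71 TPM in vehicle and 90.94, 91.11, 92.73 and 88.68 TPM in LLY-283 libraries. LLY-283 replicates 1 to 3 lay above all vehicle libraries and replicate 4 lay just below the highest of them. The log2 fold change of 0.067 had an interval from -0.00099 to 0.13 (adjusted p = 0.135, limma). Under median-of-ratios scaling it was 0.13 and passed (adjusted p = 0.0119), and over the 18 alternatives the adjusted p-value ranged from 0.0119 to 0.292. SOCS3, the STAT3 target that inhibits gp130 signalling, had 20.12, 19.97, 19.27 and 21.12 TPM in vehicle and 20.01, 20.49, 19.79 and 19.49 TPM in LLY-283 libraries. These values were interleaved, and the log2 fold change of -0.012 had a narrow interval from -0.10 to 0.080 (adjusted p = 0.856, limma). IL6ST, the gp130 receptor, stood at 39.1 ± 3.02 and 40.1 ± 2.31 TPM (log2 fold change 0.035, adjusted p = 0.707). CEBPD, a transcription factor induced by IL-6 and STAT3, stood at 4.34 ± 0.484 and 4.36 ± 0.170 TPM (log2 fold change 0.0091, adjusted p = 0.954, limma; SD, n = 4 each).

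Of the adhesion and effector targets, TNFAIP2, a TNF-induced gene of the cell cortex, was very abundant. It had 347.66, 351.75, 344.9 and 324.23 TPM in vehicle and 367.23, 357.92, 362.62 and 353.27 TPM in LLY-283 libraries. The groups did not overlap, yet the difference was small and missed the threshold (log2 fold change 0.075, unadjusted p = 0.0357, adjusted p = 0.103, limma). Over the 18 alternatives its adjusted p-value ranged from 0.0161 to 0.242, and it passed under median-of-ratios scaling alone. SOD2, the mitochondrial superoxide dismutase and a textbook NF-kB target, had 70, 69.17, 69.31 and 68.72 TPM in vehicle and 66.67, 63.44, 71.43 and 73.96 TPM in LLY-283 libraries. The vehicle values lay inside the LLY-283 range, and the log2 fold change was -0.011 (interval -0.12 to 0.093, adjusted p = 0.880, limma). ICAM1, an adhesion molecule for leukocytes, was at the edge of the filter with 1.11, 1, 1.04 and 1.19 TPM in vehicle and 1.05, 0.89, 0.92 and 1.13 TPM with LLY-283 (log2 fold change -0.11, adjusted p = 0.701, limma). PTGS2, the inducible cyclooxygenase, was at 0.3 to 0.5 TPM in all libraries.

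Several members that were not called share their locus with another gene: IL6 overlaps STEAP1B and IL6-AS1, TNFAIP3 overlaps WAKMAR2 and TNFAIP2 overlaps LINC00677, each on the opposite strand, and NFKBIZ overlaps NXPE3 on the same strand.

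Among the 11 genes under the filter, VCAM1, TRAF1, CXCL2 and CXCL3 each had at least 3 LLY-283 values at or below the lowest vehicle value. VCAM1, an adhesion molecule, had 0.77, 0.64, 0.82 and 0.86 TPM in vehicle and 0.6, 0.57, 0.52 and 0.36 TPM in LLY-283 libraries, without overlap. TRAF1, an adaptor and NF-kB target, had 1.1, 0.78, 0.95 and 0.95 TPM in vehicle and 0.78, 0.47, 0.61 and 0.77 TPM in LLY-283 libraries, touching at 0.78 TPM. These 4 were singled out after their values were seen, and the share of all genes with such a pattern was not counted. When the filter was dropped, the log2 fold change was -0.52 for VCAM1 (adjusted p = 0.220), -0.48 for TRAF1 (adjusted p = 0.262), -0.46 for CXCL2 (adjusted p = 0.533) and -0.34 for CXCL3 (adjusted p = 0.483, limma). The median over all genes in that fit was -0.055. The other 6 genes with any reading had adjusted p-values of 0.758 to 0.945 (limma). Of these, CCL20 (0.33), IL32 (0.20), IL1B (0.16) and IL1A (0.10) had positive log2 fold changes, and BIRC3 (-0.15) and PTGS2 (-0.040) negative ones. BIRC3, an inhibitor of apoptosis and ubiquitin ligase of the TNF receptor complex, was at 0.37 to 0.7 TPM in vehicle and 0.34 to 0.61 TPM with LLY-283.

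To set these genes in their pathways, 93 other genes of NF-kB signalling, of NF-kB targets and of the gp130, JAK and STAT3 pathway were examined in the same fit. The lists were chosen with earlier results of these data known, so their shares are descriptive. Of these, 71 were tested, 5 were higher and 10 were lower at an adjusted p-value under 0.05 (limma), 7.04% and 14.1% of them, against 8.61% and 17.6% of all genes tested. None of the 15 changes passed 1.5-fold in size. The balance depended on the scaling, since median-of-ratios scaling gave 13 higher and 4 lower and quantile normalization 9 higher and 6 lower. Over all genes the shares also moved, to 15% higher and 11.8% lower and to 12.9% higher and 12.6% lower. The count of lower genes was 6 when vehicle replicate 2, vehicle replicate 4 or LLY-283 replicate 2 was left out.

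Of the 42 tested genes of NF-kB signalling, 2 were higher and 7 were lower (4.76% and 16.7%, against 8.61% and 17.6% of all genes tested). The median log2 fold change of this list was 0.0033. IKBKG, which encodes NEMO, the regulatory subunit of IKK, rose from a mean of 46.5 ± 2.16 TPM in vehicle to 53.8 ± 0.977 TPM (log2 difference 0.21, adjusted p = 0.00404, limma; SD, n = 4 each). Its value is uncertain, since the use of strand in counting is not known. IRAK1, a kinase of the IL-1 and Toll-like receptors, fell from a mean of 233 ± 2.49 TPM in vehicle to 193 ± 11.3 TPM (log2 difference -0.27, adjusted p = 0.00124). RIPK1, the kinase scaffold of the TNF receptor complex, fell from a mean of 22.1 ± 0.373 TPM in vehicle to 18.6 ± 0.530 TPM (log2 difference -0.25, adjusted p = 0.00168). TRADD, the adaptor that binds the TNF receptor, fell from a mean of 17.0 ± 0.618 TPM in vehicle to 14.4 ± 0.431 TPM (log2 difference -0.24, adjusted p = 0.00479, limma; SD, n = 4 each). The groups did not overlap for these 4 genes, and all 4 were called under all 18 alternatives. SHARPIN and RBCK1, components of the linear ubiquitin ligase, TAB1, a partner of the TAK1 kinase, and MYD88, the adaptor of IRAK1, were also called lower. SHARPIN kept its call in 17 of the 18 alternatives, whereas TAB1 kept it in 7, RBCK1 in 6 and MYD88 in 4 of them, and MYD88 lost it whichever library was left out. MAP3K14, the NIK kinase of the noncanonical pathway, was also called (38.5 ± 0.884 to 45.0 ± 4.67 TPM, log2 fold change 0.22, adjusted p = 0.0408), but its groups overlapped, and with libraries left out in turn it stayed called only without LLY-283 replicate 4, at adjusted p-values of 0.00155 to 0.0946 (limma).

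Of the 9 tested NF-kB targets beyond the members, 3 were higher and 1 was lower (33.3% and 11.1%, against 8.61% and 17.6% of all genes tested). These shares rest on 9 genes of a list chosen with earlier results of these data known. PLAU, the urokinase protease, rose from 402.11, 409.28, 411.7 and 399.96 TPM in vehicle to 469.33, 482.72, 478.11 and 513.11 TPM in LLY-283 libraries (log2 fold change 0.26, adjusted p = 0.000486, limma). GADD45B, a stress-response gene, rose from a mean of 24.1 ± 1.32 TPM in vehicle to 28.0 ± 0.768 TPM (log2 difference 0.22, adjusted p = 0.00861). SDC4, a cell surface proteoglycan, rose from a mean of 32.0 ± 0.254 TPM in vehicle to 36.1 ± 1.45 TPM (log2 difference 0.18, adjusted p = 0.00764). IER3, an immediate early gene, went the other way, from a mean of 57.2 ± 2.59 TPM in vehicle to 49.1 ± 2.65 TPM (log2 difference -0.22, adjusted p = 0.00936, limma; SD, n = 4 each), and only median-of-ratios scaling removed that call (adjusted p = 0.0522). The other 14 targets of that list, TNF, CXCL10 and CCL5 among them, averaged under 1 TPM over the 8 libraries.

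Of the 20 tested genes of the gp130, JAK and STAT3 list, 0 were higher and 2 were lower (0% and 10%, against 8.61% and 17.6% of all genes tested). At an unadjusted p-value under 0.05, 0 were higher and 5 were lower (limma), with no count over all genes at that threshold. The list had a median log2 fold change of -0.090, with 17 of the 20 below 0 (85%, against 60.2% of all genes tested). Under median-of-ratios scaling 12 of the 20 were below 0 and under quantile normalization 11 (60% and 55%, against 47.4% and 46.7% of all genes). CEBPB, a transcription factor that acts with NF-kB and STAT3, fell from a mean of 31.8 ± 0.785 TPM in vehicle to 28.2 ± 1.37 TPM (log2 difference -0.17, adjusted p = 0.0164, limma; SD, n = 4 each), a call that median-of-ratios scaling (adjusted p = 0.130) and quantile normalization (adjusted p = 0.0828) removed. CNTF, ciliary neurotrophic factor, fell from a mean of 2.31 ± 0.207 TPM in vehicle to 1.57 ± 0.283 TPM (log2 difference -0.54, adjusted p = 0.0344), but it overlaps the readthrough gene ZFP91-CNTF on the same strand, and with libraries left out in turn it stayed called only without vehicle replicate 1 and without LLY-283 replicate 3 (adjusted p between 0.0262 and 0.0861, limma). CNTF also lost its call under quantile normalization (log2 difference -0.35, adjusted p = 0.0988) and without a filter (adjusted p = 0.0714). The receptors that pair with gp130 did not pass the test. In vehicle OSMR stood at 35.5 TPM, LIFR at 6.70 TPM, IL6R at 5.26 TPM and IL11RA at 2.10 TPM, with log2 fold changes of -0.091, -0.053, -0.096 and -0.18.

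**Figure D4:**
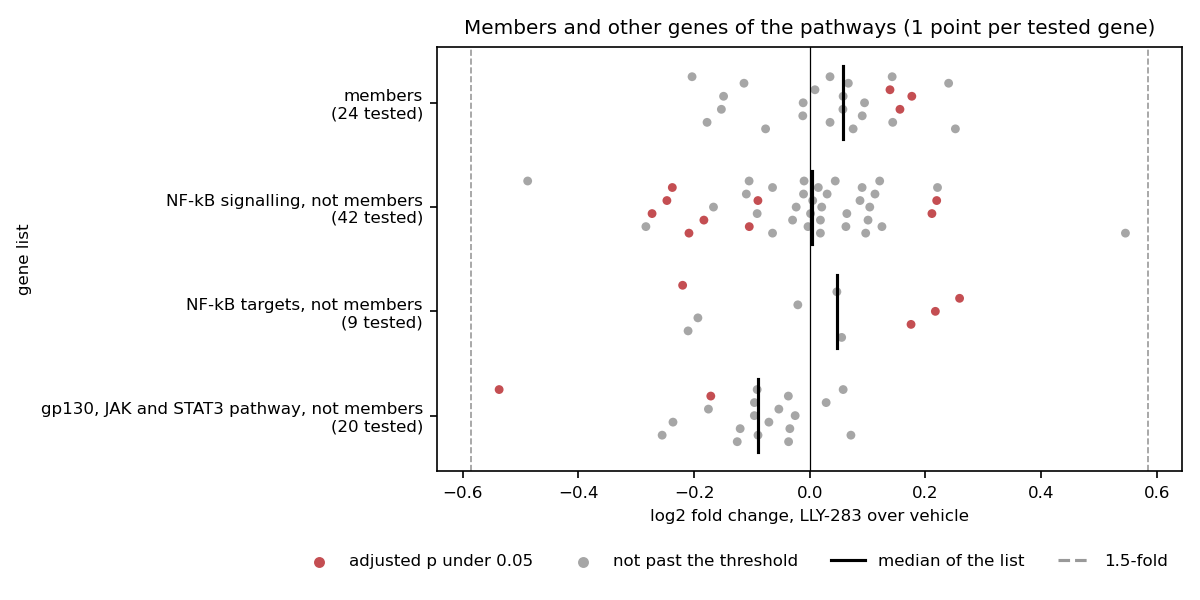
Log2 fold change of LLY-283 over vehicle for the tested genes among the 35 members and the 3 lists of other pathway genes, 1 point per gene, with red marking an adjusted p-value under 0.05 (limma), a black bar the median of each list and dashed lines 1.5-fold. The medians lie between -0.090 and 0.058 and every point lies inside the dashed lines.

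Of the 6 tested glial and mesenchymal markers, 3 were called lower and 1 higher, against 17.6% and 8.61% of all genes tested. GFAP fell from 810 ± 32.6 to 680 ± 16.1 TPM, SOX2 from 103 ± 3.16 to 85.6 ± 1.1 TPM and NES from 483 ± 4.67 to 429 ± 5.64 TPM, while CD44 rose from 1576 ± 45.2 to 1700 ± 22.7 TPM (adjusted p = 0.000820, 0.000349, 0.000731 and 0.0168, limma; SD, n = 4 each). GFAP, SOX2 and NES kept their calls in all 18 alternatives. CD44 lost its call under quantile normalization (adjusted p = 0.189), without a filter (0.0608), without vehicle replicate 1 (0.0509) and without vehicle replicate 4 (0.0528). S100B had a log2 fold change of -0.43 (adjusted p = 0.0781) and passed only without vehicle replicate 1 (0.0468). VIM had one of -0.063 (adjusted p = 0.195) and passed under quantile normalization (0.00633), without the mitochondrial genome genes (0.0169) and without LLY-283 replicate 4 (0.000853). In these bulk libraries fewer cells of a kind and less RNA per cell cannot be told apart, and the part of these shifts in the levels of the 35 genes was not tested.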

How the data were processed

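RNAseq was performed on poly(A) RNA of 4 vehicle and 4 LLY-283 libraries of U251 cells. Per the submitters' processing notes and the study's methods, reads were trimmed with Cutadapt 1.18, mapped to hg38 with STAR 2.7.0f and quantified with RSEM 1.3.1 (the methods name other releases of the last 2 tools), on GENCODE release 41. The authors deposited a table of TPM, given to 2 decimals for each gene. TPM removes depth and transcript length but not library composition, and depth cannot be recovered.

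From these values, log2(TPM + 0.1) of 14478 genes averaging 1 TPM or more was fitted with limma 3.58.1 in R 4.3.3 (eBayes with a mean-variance trend, no replicate block), with Benjamini-Hochberg adjustment over all genes tested. Fold changes are on that scale. The fit was tested on simulated data. Positions were read from GENCODE release 44 (GRCh38), where 34 of 35 members were found by identifier (all but SOD2), and promoters from RefSeq.

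The members and lists were chosen with earlier results of these data known. All members are accounted for; values per library are given for called members, for NFKB1, RELA, NFKBIA, IL6, STAT3 and SOCS3, and for others after their values were seen. Of each list of other genes, up to 3 called genes per direction with the largest change are given, by mean and SD except for PLAU. Alternatives were 2 pseudocounts, 2 filters, quantile and median-of-ratios scaling, 2 forms of eBayes, a replicate block, other fold thresholds and each library left out; leaving out the mitochondrial genome genes was added after seeing the data. Same-numbered libraries did not deviate together.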

Additional observations from a re-analysis of the deposited data

Results flagged for a closer look

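In each group of 4 libraries, the gap between the highest or lowest value and its nearest neighbour was compared with the whole range of the group (Dixon's criterion). Of 48 groups (24 tested genes in 2 treatments), 3 had a library apart from the rest, and chance alone gives about 1 in 20. IKBKB was 25.32 TPM in LLY-283 replicate 4 against 34.66 to 35.37 TPM in the other 3. IL6ST was 43.63 TPM in vehicle replicate 3 against 37.14 to 38.05 TPM. TRAF2 was 22.26 TPM in vehicle replicate 2 against 21.07 to 21.26 TPM.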

How the results depend on the processing

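With 4 libraries per group and changes near 10%, the calls depended on the scaling. Members called higher numbered 3, but 5 under quantile normalization, 6 with median-of-ratios scaling and 2 to 5 with each library left out (5 without LLY-283 replicate 4, where IKBKB and LIF passed). The share of all genes called higher moved too, from 8.61% to 12.9%, 15% and 6.23% to 10.3% in that order. No member was called lower under any of the 18 alternatives. Of the other pathway genes, 10 were called lower, but 6 without a filter, 6 under quantile normalization, 4 with median-of-ratios scaling and 6 to 9 with a library left out (6 without vehicle replicate 2, vehicle replicate 4 or LLY-283 replicate 2); 5 were called higher, but 9 under quantile normalization, 13 with median-of-ratios scaling and 4 to 6 with a library left out. The share of all genes called lower was 17.6%, and 6.49%, 12.6%, 11.8% and 13.1% to 18.5% under those settings. With the replicate number as a block, 6 of those pathway genes were lower (15.2% of all genes), and CNTF was lost (adjusted p = 0.0636, limma). In that fit 4 members were higher (7.56% of all genes), and LIF passed as well (adjusted p = 0.0189, limma). However, same-numbered libraries correlated at only -0.085 to 0.032 in their deviations and none correlated best with its own number. The sign turned for 5 members near 0, none of them called. SOCS3 was 0.036 under quantile normalization, 0.048 with median-of-ratios scaling and -0.032 to 0.011 with a library left out. SOD2 was 0.048 with median-of-ratios scaling and -0.046 to 0.027 with a library left out, ICAM1 0.12 under quantile normalization, CXCL8 -0.047 to 0.20 and CEBPD -0.060 to 0.055 with a library left out. The causes were not tested. No member passed 1.5-fold under any alternative, and TPM holds no depth to bound the low genes.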
